A study of Mus musculus and Bos taurus with 26 samples.

Results

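Duxf3 is the mouse gene model of a copy of Dux, a homeobox transcription factor gene, and AW822073 is a protein-coding gene model that lies beside it on chromosome 10. Their coding sequences are near copies of each other, matching at 98.1% of 1959 aligned bases. The 2 genes were followed through every mouse library of the series, as 2 of 27988 genes with values. They were chosen by their measured levels at the early 2-cell stage, which stood higher in embryos that received Hdac1 mutant mRNA than in embryos that received the wild-type (WT) mRNA, so their early levels are given below as a description with no test. Both passed the filter for testing, an FPKM (fragments per gene, scaled for transcript length and for the library's mapped total) of at least 1 in at least 2 libraries, which 17336 genes passed.

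The series measured polyA RNA of whole embryos, in 22 mouse libraries forming 11 groups of 2 and in 4 cattle libraries not analysed here. Early 2-cell embryos were collected 24 h after fertilization, and late 2-cell embryos at 36 h. At the zygote stage, embryos were injected with Hdac1 WT mRNA or Hdac1 mutant mRNA (each collected early and late), with Hdac2 WT mRNA, Hdac2 mutant mRNA or water (each collected late). In 2 further late groups, embryos injected with Hdac1 mutant mRNA as zygotes received a second injection into 2 blastomeres at the early 2-cell stage, of Kdm5b mRNA or of water. The last pair of late groups was cultured in KSOM medium with DMSO or treated with 50 nM FK228, a drug that blocks HDAC1 and HDAC2, from the zygote stage. The mouse strain, the amino acid changes of the mutant mRNAs and the number of embryos per library are not given in the labels used here, and neither is whether the 2 libraries of a group came from separate cultures, so each p-value reflects the scatter of these libraries alone, and that scatter may be technical.

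Mouse Dux encodes a protein with a pair of homeodomains and lies in a tandem array of copies. It is transcribed in a short burst as the embryonic genome is first activated, and its protein binds and activates 2-cell genes such as the Zscan4 cluster and copies of the MERVL retrovirus, after which the gene is silenced again as the 2-cell stage ends. HDAC1 and HDAC2 remove acetyl groups from histones, and KDM5B removes methyl groups from lysine 4 of histone H3, a mark of active promoters.

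On GRCm38 (GENCODE M21 annotation), Duxf3 (ENSMUSG00000075046) spans chr10:58229979-58232675 on the minus strand, and AW822073 (ENSMUSG00000058537) spans chr10:58222972-58224930, also on the minus strand and 5.0 kb from it. Their annotated coding sequences run to 2025 and 1959 bases. Aligned over all 1959 bases of AW822073, they matched at 1922 bases with no gap, an identity of 98.1%. The 2 stretches below show how alike the genes are to a sequencing read. In each, lower case marks bases that the genes share and capitals mark those that differ. The first is the opening 300 bases of the AW822073 coding sequence (chr10:58224631-58224930, minus strand) beside the matching bases of Duxf3 (chr10:58232310-58232609, minus strand), with 2 differences.
Duxf3: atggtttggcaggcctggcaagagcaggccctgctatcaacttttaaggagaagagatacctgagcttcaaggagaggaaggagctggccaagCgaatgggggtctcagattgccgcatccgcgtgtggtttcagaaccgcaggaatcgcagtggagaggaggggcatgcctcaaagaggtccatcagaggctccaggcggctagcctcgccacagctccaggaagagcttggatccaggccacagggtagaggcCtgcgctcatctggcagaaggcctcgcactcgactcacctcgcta
AW822073: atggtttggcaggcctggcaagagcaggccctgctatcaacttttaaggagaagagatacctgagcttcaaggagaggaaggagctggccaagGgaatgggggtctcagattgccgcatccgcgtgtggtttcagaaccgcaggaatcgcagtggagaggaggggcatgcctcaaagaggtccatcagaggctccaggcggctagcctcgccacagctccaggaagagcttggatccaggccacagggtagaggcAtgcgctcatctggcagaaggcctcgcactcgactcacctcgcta
The second is the 150 bases with the most differences outside those opening bases, 10 in all (Duxf3 at chr10:58231126-58231275, AW822073 at chr10:58223447-58223596, both minus strand).
Duxf3: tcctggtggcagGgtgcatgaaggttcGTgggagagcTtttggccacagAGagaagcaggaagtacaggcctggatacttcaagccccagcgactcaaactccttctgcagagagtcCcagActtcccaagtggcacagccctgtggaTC
AW822073: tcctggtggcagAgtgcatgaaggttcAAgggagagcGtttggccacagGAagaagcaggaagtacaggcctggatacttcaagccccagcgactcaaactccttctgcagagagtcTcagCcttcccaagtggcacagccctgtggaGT
Of all 50-base windows in the Duxf3 coding sequence, 48.6% were found letter for letter in AW822073, and of those in AW822073, 52.4% were found in Duxf3. A read that lies wholly within such a window cannot be assigned to 1 of the genes by sequence, while a longer one may reach a differing base. How the authors' counting treated shared reads is not given in the sources used here. The 2 levels may share reads, so they are not taken as independent measurements. Gm4981, the protein-coding gene model 2.2 kb from Duxf3 on its other side, was much less alike: 83.8% of 791 aligned bases matched, and 0.0506% of the Duxf3 windows were found in it. Duxbl1, a Dux-like gene elsewhere in the genome, could be aligned over 114 bases only, with 71.1% identity.

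Between 10704 and 14554 genes reached 1 FPKM in a library, and the correlation of log2 values between the 2 libraries of a group lay between 0.955 and 0.989. Relative depth, estimated from the steps between low values, ranged from 0.660 to 1.31 of the typical library, and absolute depth is unknown. The injected mRNAs were seen where the labels place them. Hdac1 stood between 2707 and 7253 FPKM in the libraries injected with Hdac1 mRNA only, at 805 to 917 FPKM where a second injection followed, and between 47.7 and 92.2 FPKM elsewhere. Hdac2 reached 1462 to 2443 FPKM in its injected libraries against 16.3 to 72.7 FPKM elsewhere, and Kdm5b reached 594 and 638 FPKM after Kdm5b mRNA against at most 143 FPKM elsewhere. These levels do not tell WT from mutant mRNA or injected from embryonic RNA. The 8 oocyte and cleavage embryo markers summed to between 330 and 2054 FPKM, with none at 0 in both libraries of a group, and the 6 sperm markers summed to at most 8.48 FPKM. The 12 cumulus and granulosa cell markers summed to between 5.75 and 70.8 FPKM, of which Amhr2 made the most in the late controls. Without Amhr2, the other 11 summed to between 0.477 and 20.9 FPKM in the late libraries and between 5.56 and 10.7 FPKM in the early ones. In each group, 1 to 6 of the 12 were at 0 in both libraries. Fshr was among them in all late groups except FK228, and in neither early group.

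At the early 2-cell stage both genes were transcribed in WT-injected embryos and stood 4.38 and 4.23 times as high with mutant Hdac1. Duxf3 read 4.45 and 5.13 FPKM in the Hdac1 WT libraries and 20.5 and 21.4 FPKM in the Hdac1 mutant libraries, the first of these ratios of means. AW822073 read 5.81 and 5.18 FPKM with WT and 24.5 and 21.98 FPKM with mutant mRNA, the second ratio. For both genes the mutant libraries lay above the WT libraries with no overlap, in the comparison that chose the genes. Duxf3 thereby moved from a level above 76.1% and 77.6% of all genes in the WT libraries to one above 89.8% and 90.3% in the mutant libraries. In all, 0.231% of tested genes were higher and 0.329% lower in this comparison by the limma test described below, and since it chose the genes, nothing is read from that share. Gm4981 stood at 9.97 and 9.74 FPKM with WT and at 16.7 and 15.0 FPKM with mutant mRNA, a ratio of 1.61. The summed cumulus and granulosa markers were 10.6 and 13.8 FPKM with WT and 5.75 and 7.37 FPKM with mutant mRNA, and their part in the difference was not tested.

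By the late 2-cell stage both genes stood below 1 FPKM in every control library and above 2 FPKM in every library with mutant mRNA or FK228, apart from those that also received Kdm5b mRNA. In the 8 late control libraries (water, Hdac1 WT, Hdac2 WT and DMSO), Duxf3 lay between 0 and 0.690 FPKM. It was listed at 0 in 1 DMSO library and read 0.177 FPKM in the other. AW822073 lay between 0.159 and 0.996 FPKM in the same 8 libraries. From early to late, the Hdac1 WT mean of Duxf3 went from 4.79 ± 0.481 to 0.349 ± 0.0982 FPKM (SD, n = 2), and that of the Hdac1 mutant from 20.9 ± 0.646 to 4.89 ± 1.40 FPKM. AW822073 went from 5.49 ± 0.448 to 0.703 ± 0.414 FPKM with WT and from 23.2 ± 1.76 to 6.26 ± 2.03 FPKM with mutant mRNA. No p-value is given for either gene in these steps, because the early libraries chose the genes. The late mutant libraries thus overlapped the early WT libraries in both genes. From early to late, 28.8% of tested genes were higher and 28.1% lower with WT, and 40.6% higher and 25.8% lower with mutant mRNA.

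**Figure D1:**
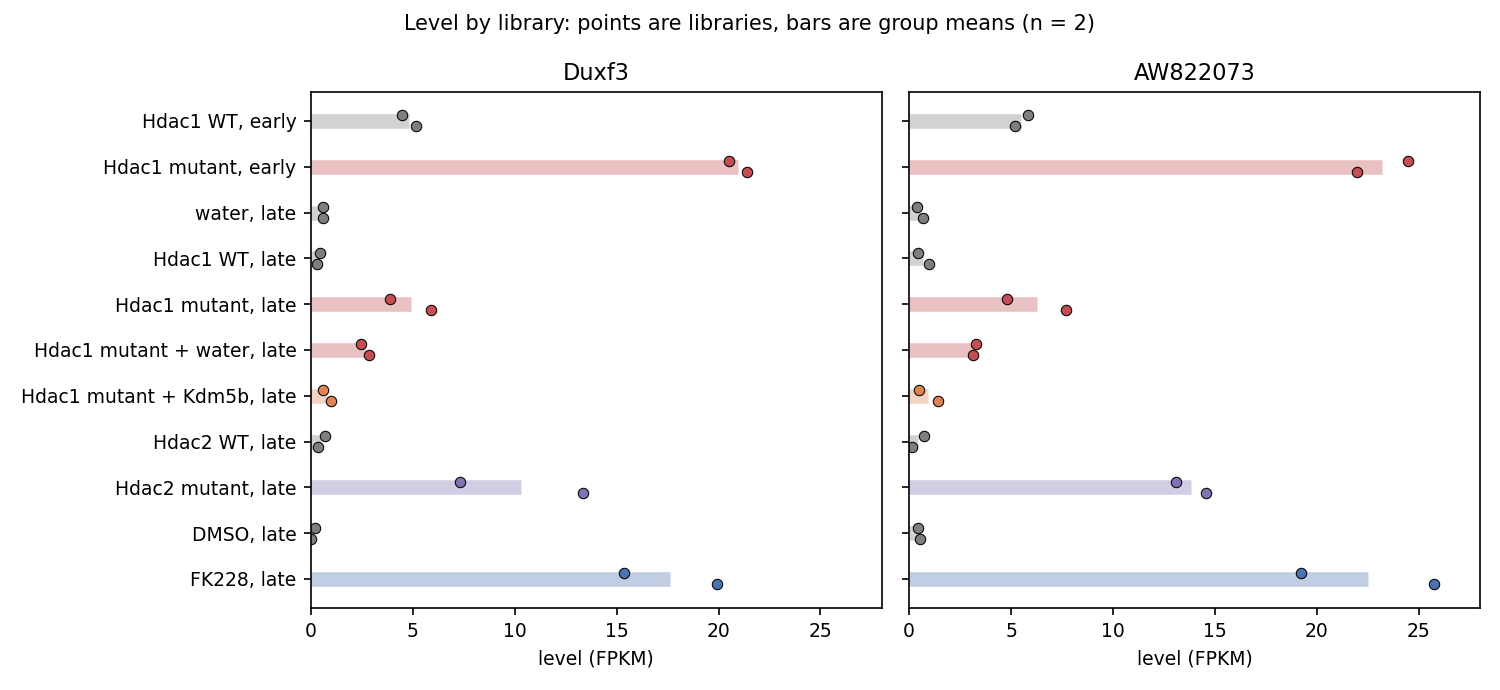
Level of Duxf3 (left) and AW822073 (right) in FPKM in each of 11 groups, with points for the 2 libraries and bars for their mean. The early Hdac1 mutant, FK228 and Hdac2 mutant groups are highest, the late Hdac1 mutant overlaps the early Hdac1 WT, and the late controls stay below 1 FPKM in both genes.

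Ordered by mean, Duxf3 ran from the early Hdac1 mutant (20.9 FPKM) through FK228 (17.6 ± 3.22 FPKM, SD, n = 2), the Hdac2 mutant (10.3 ± 4.25) and the late Hdac1 mutant (4.89) to the early Hdac1 WT (4.79). The Hdac1 mutant with water at the second injection (2.65 ± 0.307), the same with Kdm5b (0.763 ± 0.275), water (0.605 ± 0.00229), Hdac2 WT (0.505 ± 0.261), late Hdac1 WT (0.349) and DMSO (0.0886 ± 0.125) followed. Neighbours in that order overlapped from the late Hdac1 mutant to the early Hdac1 WT and in each step from Kdm5b down to the late Hdac1 WT. The order of AW822073 was the same down to Kdm5b (0.945 ± 0.671 FPKM), with FK228 (22.5 ± 4.62) overlapping the early Hdac1 mutant and the Hdac2 mutant at 13.8 ± 1.04 FPKM. Its 4 late control groups and Kdm5b overlapped at every step.

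Each late comparison was tested with limma on log2(FPKM + 1), where changes at low FPKM come out too small, with a spread shared by all 22 mouse libraries and Benjamini-Hochberg adjustment over the 17336 genes. A gene was called at an adjusted p under 0.05, and all tests were two-sided. For these comparisons, rose and fell mean higher or lower than in the other late group, not a change over time. Because the samples are whole embryos, a change in the number of transcribing cells or embryos and a change in RNA per cell cannot be told apart.

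With Hdac1 mutant mRNA, both genes stood higher in late embryos than with Hdac1 WT mRNA, although below their own early levels. Duxf3 read 3.90 and 5.88 FPKM against 0.419 and 0.280 FPKM with Hdac1 WT mRNA, a log2 difference of 2.11 ± 0.26 (SE, limma adjusted p = 5.22e-06). AW822073 read 4.82 and 7.70 FPKM against 0.410 and 0.996 FPKM, a log2 difference of 2.08 ± 0.28 (limma adjusted p = 1.33e-05). The test called 30.5% of all genes higher and 21.6% lower (52.1% in all), so a call alone sets neither gene apart. By size, 6.63% of tested genes had a larger difference than Duxf3 and 6.82% a larger one than AW822073. Against water-injected embryos (0.604 and 0.607 FPKM for Duxf3, 0.405 and 0.674 FPKM for AW822073) the differences were 1.85 ± 0.26 and 2.21 ± 0.28 (limma adjusted p = 1.82e-05 and 7.14e-06), where 29.4% of genes were called higher and 24.8% lower (54.1% in all). These comparisons share the mutant libraries.

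Hdac1 WT mRNA gave no call for either gene against water. The log2 difference was −0.25 ± 0.26 for Duxf3 (limma adjusted p = 0.727) and 0.13 ± 0.28 for AW822073 (limma adjusted p = 0.923), in a comparison that called 0.352% of genes higher and 1.83% lower (2.19% in all). The 2 Duxf3 libraries with Hdac1 WT lay below both water libraries, while those of AW822073 overlapped. Hdac2 WT mRNA likewise gave no call against water, at −0.10 ± 0.26 for Duxf3 and −0.11 ± 0.28 for AW822073 (limma adjusted p = 0.901 for both, with 6.59% of genes called higher and 2.86% lower, 9.45% in all). The direction of 3 of these 4 differences, all but that of Duxf3 with Hdac1 WT, turned when single libraries were left out.

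With Hdac2 mutant mRNA, both genes stood higher still in value in late embryos. Duxf3 read 7.31 and 13.3 FPKM against 0.690 and 0.321 FPKM with Hdac2 WT mRNA, a log2 difference of 2.87 ± 0.26 (limma adjusted p = 2.04e-07). AW822073 read 13.1 and 14.6 FPKM against 0.738 and 0.159 FPKM, a difference of 3.39 ± 0.28 (limma adjusted p = 9.06e-08). Here 30.8% of genes were called higher and 22.2% lower (53% in all), and 2.91% and 1.45% of genes had a larger difference than Duxf3 and AW822073. The test of the difference between the Hdac1 and Hdac2 effects did not pass for Duxf3 (−0.76 ± 0.36, limma adjusted p = 0.53) or AW822073 (−1.30 ± 0.39, limma adjusted p = 0.266), with 0.0404% of genes called higher and 0.0635% lower (0.104% in all).

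The inhibitor FK228 gave the highest late levels. Duxf3 read 15.3 and 19.9 FPKM with FK228 against 0.177 and 0 FPKM with DMSO, a log2 difference of 4.09 ± 0.26 (limma adjusted p = 4.69e-09). AW822073 read 19.2 and 25.8 FPKM against 0.434 and 0.514 FPKM, a difference of 3.98 ± 0.28 (limma adjusted p = 1.16e-08). The test called 31% of genes higher and 26.3% lower (57.2% in all). By size, 0.513% of tested genes had a larger difference than Duxf3 and 0.64% a larger one than AW822073. The FK228 effect exceeded the Hdac1 mutant effect by 1.98 ± 0.36 in Duxf3 (limma adjusted p = 0.00629) and by 1.90 ± 0.39 in AW822073 (limma adjusted p = 0.0119), in a test that called 2.2% of genes in this direction and 4.76% in the other (6.97% in all). Injection and culture with an inhibitor differ as treatments, with separate controls. Without FK228 replicate 2 the adjusted p for AW822073 was 0.0559, and with only the libraries of the groups compared neither gene passed (0.0752 and 0.0999). The Hdac2 mutant effect minus the FK228 effect was not called for Duxf3 (−1.22 ± 0.36, limma adjusted p = 0.0872) or AW822073 (−0.60 ± 0.39, limma adjusted p = 0.467). Without Hdac2 mutant replicate 2 the Duxf3 difference was −1.61. By the same subtraction, 1.48% of genes were called higher and 0.594% lower (2.08% in all).

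In the same late comparisons other measures moved with the 2 genes. The libraries with mutant mRNA or FK228, the second injections included, held 13412 to 14554 genes at 1 FPKM or more where the controls held 11284 to 12105. The summed oocyte and cleavage markers stood at 330 and 352 FPKM with the Hdac1 mutant against 895 and 811 FPKM with WT, at 337 and 352 against 975 and 769 with Hdac2, and at 332 and 366 against 736 and 670 with FK228 and DMSO. The summed cumulus and granulosa markers were also lower in the treated libraries, at 13.3 and 19.6 against 41.3 and 50.2 FPKM, 28.5 and 30.1 against 55.9 and 70.8 FPKM, and 15.7 and 26.6 against 63.7 and 67.7 FPKM in the same order. Amhr2 made the most of these control sums, so they do not speak for the list as a whole. Fewer of the 12 markers were at 0 in both libraries in the treated groups, at 2 against 6, 1 against 3 and 1 against 3. The part of these shifts in the results was not tested.

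Kdm5b mRNA, given after Hdac1 mutant mRNA, left both genes lower in value, but neither passed the test. Duxf3 read 0.568 and 0.958 FPKM with Kdm5b against 2.43 and 2.87 FPKM with water at the second injection, a log2 difference of −1.06 ± 0.26 (limma adjusted p = 0.0624, unadjusted p = 0.000879). AW822073 read 0.471 and 1.42 FPKM against 3.26 and 3.12 FPKM, a difference of −1.15 ± 0.28 (limma adjusted p = 0.0619, unadjusted p = 0.00086). The test called 0.629% of genes lower and 0.415% higher (1.04% in all). Of all tested genes, 1.5% had a lower difference than Duxf3 and 0.981% a lower one than AW822073. The 2 Kdm5b values of Duxf3 lay on either side of those of the libraries injected with water alone (0.604 and 0.607 FPKM). For AW822073, 0.471 FPKM lay between the water values (0.405 and 0.674 FPKM) and 1.42 FPKM above both. Hdac1 itself stood at 842 ± 24.6 FPKM (SD, n = 2) in the Kdm5b group and at 861 ± 79.0 FPKM in its control. The summed oocyte and cleavage markers stood at 469 and 457 FPKM with Kdm5b and at 401 and 429 FPKM in its control, and their part in the result was not tested.

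Embryos given Hdac1 mutant mRNA and then the second water injection still differed from embryos injected with water alone. These groups differ in both the mRNA and the second injection, which cannot be told apart here. Duxf3 rose by 1.18 ± 0.26 on the log2 scale (limma adjusted p = 0.00113) and AW822073 by 1.45 ± 0.28 (limma adjusted p = 0.000421), where 34.5% of genes were called higher and 18.1% lower (52.6% in all). The water libraries are those of the comparisons above. With quantile normalization Duxf3 did not pass (0.46, adjusted p = 0.205).

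**Figure D2:**
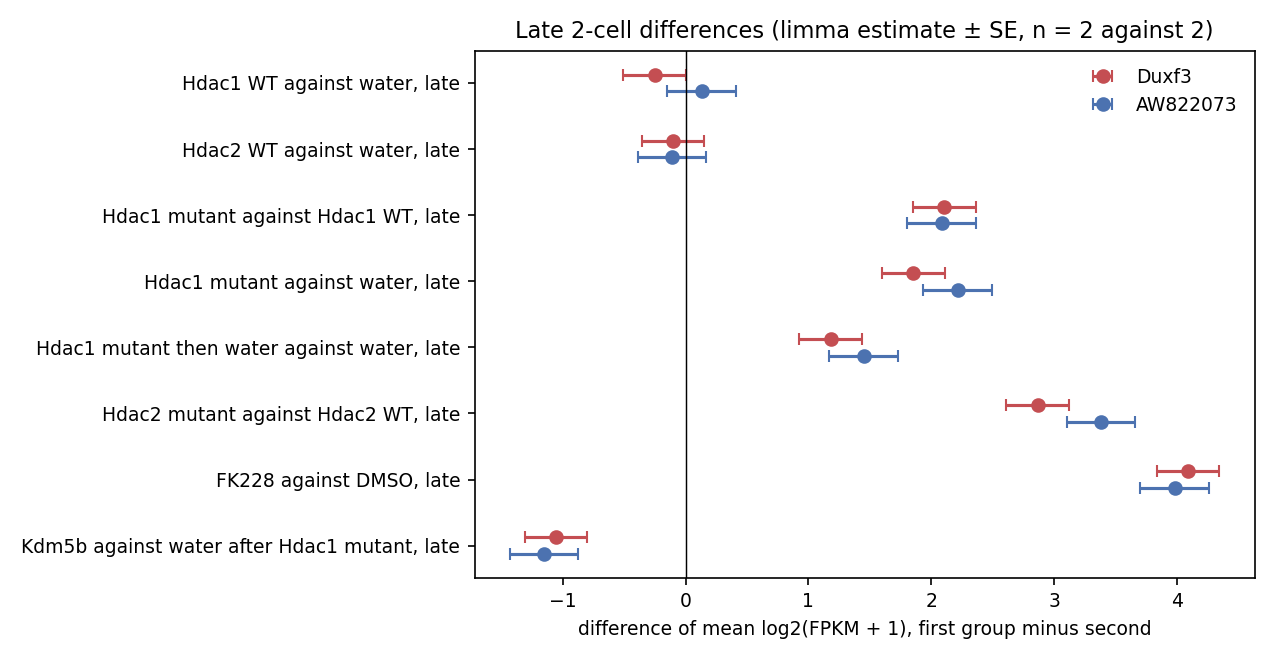
Differences of mean log2(FPKM + 1) between late groups for Duxf3 and AW822073 (limma estimate with its SE as bars, 2 libraries against 2), first group minus second. The differences run from about 0 for the WT mRNAs through 2.11 and 2.08 for the Hdac1 mutant to 4.09 and 3.98 for FK228, and lie at −1.06 and −1.15 for Kdm5b.

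Across libraries the 2 genes kept close to each other. In the 12 libraries where both reached 1 FPKM, AW822073 was above Duxf3 in all 12, at 1.01 to 1.79 times its level with a median of 1.25. In the other 9 libraries with Duxf3 above 0 the ratio ranged from 0.495 to 3.56, and 5 of them were above 1. Over all 22 libraries Pearson's r between the 2 genes on log2(FPKM + 1) was 0.988, and over the 18 late libraries 0.985. The groups make most of this spread and the genes may share reads, so the value is a description with no p.

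**Figure D3:**
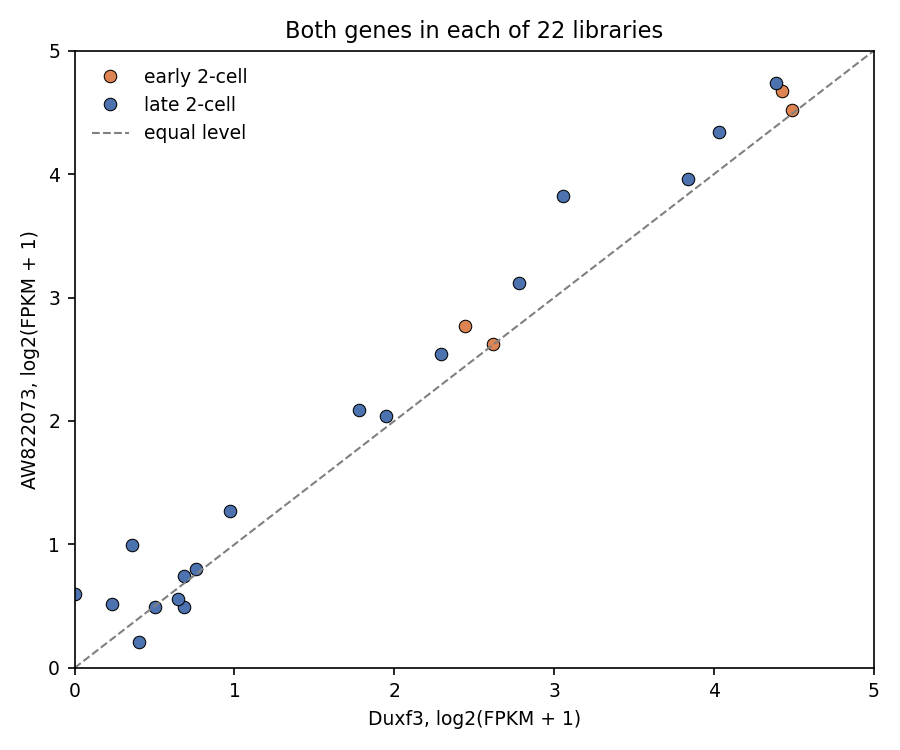
AW822073 against Duxf3 on log2(FPKM + 1) in each of 22 libraries, early in orange and late in blue, with a dashed line at equal level. The libraries line up close to the line from the late controls at the low end to the early Hdac1 mutant and FK228 libraries at the high end, and all 12 libraries with both genes at 1 FPKM or more lie above it.

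Of genes with a mean of at least 5 FPKM in a group, 11475 in all, those most like Duxf3 over the 22 libraries were Afap1 (r = 0.920), Tox2 (0.916), Trib2 (0.911), Wfs1 (0.906) and Camsap3 (0.906). Those most like AW822073 were Tox2 (0.920), Wfs1 (0.918), Afap1 (0.908), Trib2 (0.900) and Mon1b (0.900). So 4 genes stood in both lists, which follows in part from the closeness of the 2 genes to each other. Tox2, which encodes an HMG-box protein, read 14.9 and 17.0 FPKM with FK228 against 0.621 and 1.03 FPKM with DMSO. In the early groups it read 8.10 and 7.06 FPKM with Hdac1 WT and 9.33 and 11.1 FPKM with Hdac1 mutant mRNA, a ratio of means of 1.35. The early ratios of Afap1, Trib2, Wfs1, Camsap3 and Mon1b were lower, at 1.10, 1.13, 1.03, 1.05 and 1.01. All lay below the 4.38 of Duxf3, which was chosen for its early difference, so nothing is read from that gap.

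Genes near the pair did not all move with it. The table held 12 other genes within 500 kb of Duxf3, of which 10 were tested. In the Hdac1 mutant comparison 4 of the 10 were called higher and 2 lower, in the Hdac2 mutant comparison 3 and 2. With FK228 these counts were 2 and 2, and with Kdm5b 0 and 0. All genes gave 30.5% and 21.6%, 30.8% and 22.2%, 31% and 26.3%, and 0.415% and 0.629% in the same order. The counts are close to these shares, so they do not set the neighbours apart from other genes. Gm4981, next to Duxf3, rose in all 3 treatments. It read 0.669 and 3.42 FPKM with the Hdac1 mutant against 0.116 and 0.264 FPKM with WT (log2 difference 1.19 ± 0.32, limma adjusted p = 0.00561). With the Hdac2 mutant it read 3.10 and 4.26 FPKM against 0.429 and 0.118 FPKM (1.88 ± 0.32, limma adjusted p = 0.000142). With FK228 it read 5.60 and 6.55 FPKM against 0.117 and 0.195 FPKM (2.61 ± 0.32, limma adjusted p = 4.55e-06). Its Hdac1 call rests on replicate 2 of the mutant, without which the difference was 0.49 (adjusted p = 0.114), and did not pass with quantile normalization (0.58) or with only the groups compared. It was not called with Kdm5b (−0.52, limma adjusted p = 0.486).

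Where both members of the pair reached 1 FPKM, Gm4981 stood in another proportion to Duxf3 in the early than in the late libraries. In the 4 early libraries it was at 0.702 to 2.24 times the Duxf3 level, above Duxf3 in both WT libraries, and in the 8 late libraries with both members at 1 FPKM or more it was at 0.172 to 0.582 times, with a median of 0.392. The 2 ranges did not overlap, but these 8 late libraries all had mutant mRNA or FK228. In the other late libraries with Duxf3 above 0, all at low levels, the ratio ran from 0.277 to 1.07. That range reaches into the early one, and a difference between stages was not tested. Gm10807, a pseudogene 1.3 kb from Duxf3, was called in none of the 3 comparisons (−0.33, 0.63 and 0.77). Gcc2, which encodes a Golgi coiled-coil protein 22.8 kb away, rose with the Hdac1 mutant (0.61 ± 0.20, limma adjusted p = 0.0183), and was not called in the Hdac2 mutant and FK228 comparisons (−0.27 and −0.21). Its Hdac1 call was lost without mutant replicate 1 or WT replicate 2 (adjusted p = 0.173 and 0.0797), with quantile normalization (0.38, adjusted p = 0.176) and with only the groups compared (adjusted p = 0.155). With quantile normalization Gcc2 was instead called lower with the Hdac2 mutant (−0.72, adjusted p = 0.0141) and FK228 (−0.58, adjusted p = 0.0382). Lims1, 90.8 kb away, fell in all 3, by 1.19, 0.71 and 1.40 on the log2 scale, and Ranbp2, which encodes a nuclear pore protein 214.2 kb away, fell by 1.74, 1.55 and 2.26. Edar, 368.1 kb away, rose in all 3, by 0.92, 1.35 and 1.12, at a highest group mean of only 1.71 FPKM. Pkib was called higher with the Hdac1 mutant only (0.95). BB019430, at 0 FPKM in 17 of 22 libraries, was called higher with the Hdac2 mutant only (1.24). Fabp7 and Ccdc138 were called in none of the 3. Pkib had the highest group mean of these low genes, 2.93 FPKM.

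**Figure D4:**
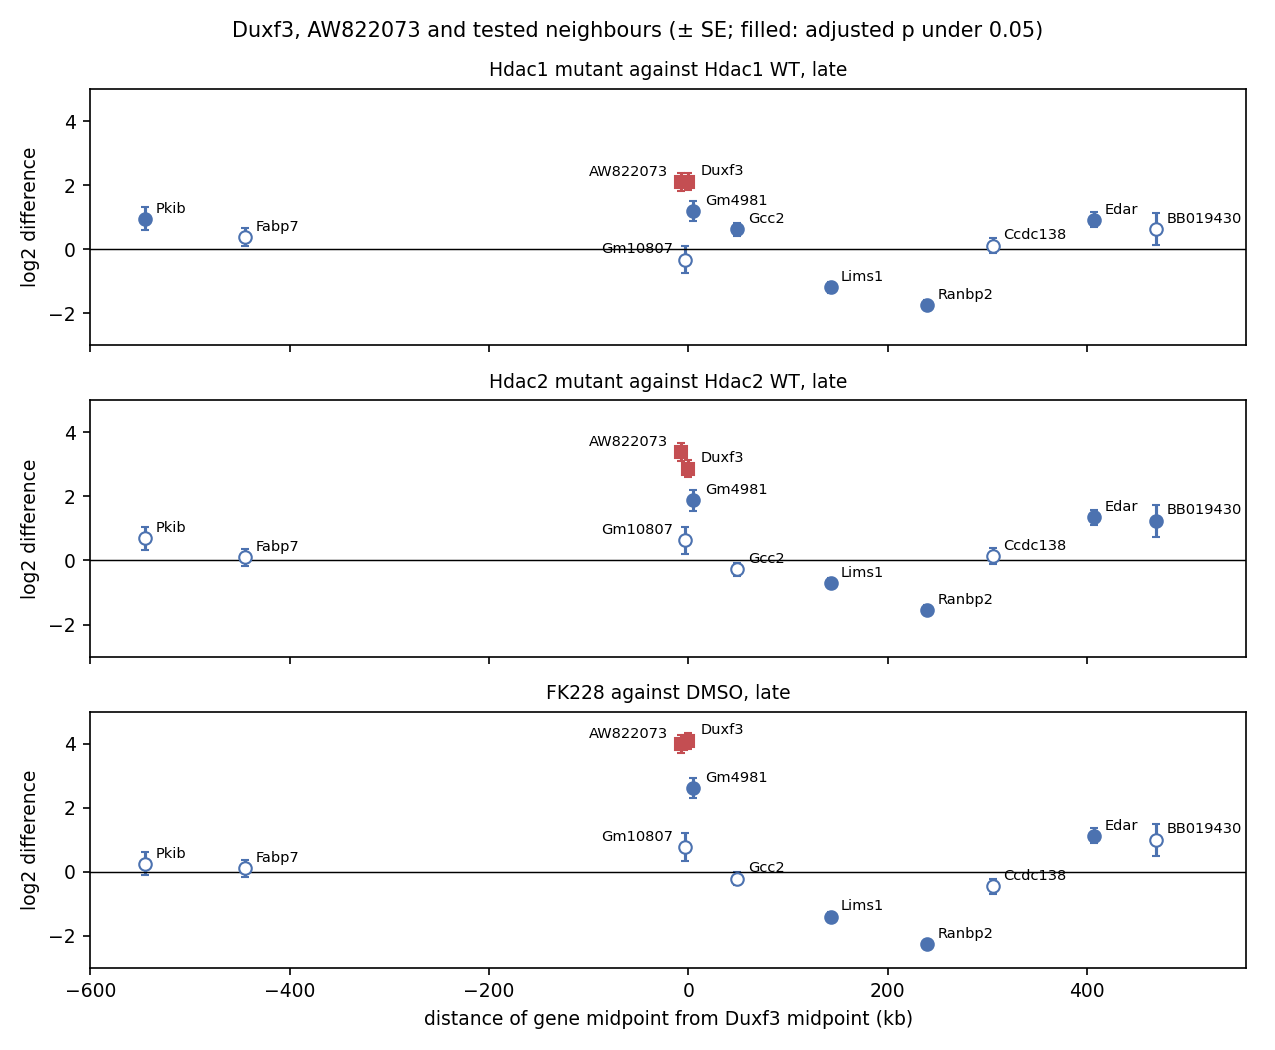
Log2 differences with SE of Duxf3, AW822073 (red squares) and 10 tested neighbours (blue circles) by distance in kb between gene midpoints, for the Hdac1 mutant, Hdac2 mutant and FK228 comparisons, filled where the adjusted p was under 0.05. The pair and Gm4981 stand highest in each panel, and Lims1 and Ranbp2 lie below 0.

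Of the known activators of Dux, 4 of 5 listed genes were in the table (Dppa2, Dppa4, Trp53 and Nelfa). They fell or did not pass where Duxf3 and AW822073 rose, apart from Nelfa with FK228. Over all genes, 30.5% were called higher and 21.6% lower with the Hdac1 mutant. The shares were 30.8% and 22.2% with the Hdac2 mutant, and 31% and 26.3% with FK228. Dppa2, which with Dppa4 binds the Dux promoter, read 119 ± 5.54 FPKM with Hdac1 WT and 11.8 ± 4.18 FPKM with Hdac1 mutant mRNA (SD, n = 2), a fall of 3.28 on the log2 scale, and its log2 differences were −3.26 with the Hdac2 mutant and −3.76 with FK228. Dppa4 fell by 2.25, 2.46 and 3.31 in the same order. Trp53 was called lower with FK228 only (−2.39), at −0.53 and −0.75 in the mutant comparisons, and Nelfa, a subunit of the factor that pauses RNA polymerase, was called higher with FK228 only (0.50), at −0.12 and −0.18 in the mutant comparisons. With quantile normalization these 2 values of Nelfa turned positive, and its FK228 call was lost without FK228 replicate 2 or DMSO replicate 1 (adjusted p = 0.123 and 0.109). At the early stage Dppa2 stood at 13.8 ± 2.36 FPKM with WT and 11.7 ± 3.27 FPKM with mutant mRNA, and Dppa4 at 2.34 ± 0.0563 and 1.99 ± 0.00986 FPKM. With Kdm5b none of the 4 was called, beside 0.415% of all genes higher and 0.629% lower. Dppa2 read 0.50 and Dppa4 0.41 there (limma adjusted p = 0.268 and 0.122).

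Of 18 listed repressors of Dux, 1 was called higher and 11 lower with the Hdac1 mutant, 2 and 9 with the Hdac2 mutant, 3 and 11 with FK228, and 0 and 0 with Kdm5b. Over all genes the shares called higher and lower were 30.5% and 21.6%, 30.8% and 22.2%, 31% and 26.3%, and 0.415% and 0.629%. The medians were −0.76, −0.65, −0.66 and 0.18, beside 0.17, 0.14, 0.15 and −0.02 over all genes tested. Quantile normalization moved the first of these medians over all genes from 0.17 to −0.063. Sumo2, which encodes a small ubiquitin-like modifier, fell by 2.83, 2.86 and 3.34 in the 3 treatments, and Pcgf6, a subunit of a variant Polycomb complex, by 2.24, 2.31 and 2.86. Trim28, the co-repressor also known as KAP1, fell by 0.77, 1.16 and 1.46, although with quantile normalization its fall with the Hdac1 mutant did not pass. Chaf1b, a subunit of the chromatin assembly factor CAF-1, rose by 2.07 with the Hdac1 mutant and by 2.05 with the Hdac2 mutant. Smchd1, a chromatin repressor that silences clustered genes, was called lower with the Hdac1 mutant (−0.58, adjusted p = 0.0296). This call was lost without mutant replicate 1, WT replicate 1 or WT replicate 2 (adjusted p = 0.156, 0.119 and 0.0572) and with only the groups compared (adjusted p = 0.077). Smchd1 read 0.16 with the Hdac2 mutant and −0.49 with FK228, where it was called lower with a minimum of 5 FPKM (adjusted p = 0.048) and with only the groups compared (adjusted p = 0.0256).

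Some families of Dux target genes stood higher in late treated embryos than in their late controls, and others stood lower. Of 36 targets in the table, all tested, 19 were called higher and 9 lower with the Hdac1 mutant, 20 and 9 with the Hdac2 mutant, and 22 and 10 with FK228, with medians of 0.60, 0.93 and 1.35 beside 0.17, 0.14 and 0.15 over all genes tested. Over all genes 30.5%, 30.8% and 31% were called higher and 21.6%, 22.2% and 26.3% lower, so the number of targets called lower is close to the background. All 5 Zscan4 genes, which encode zinc-finger proteins of the 2-cell stage, rose in each of the 3 comparisons, with medians of 2.27, 3.05 and 2.34, and 4 of 5 Usp17l deubiquitinase genes did so too. Zscan4f read 240 and 183 FPKM with the Hdac1 mutant against 55.9 and 32.6 FPKM with WT, and 201 and 153 FPKM with FK228 against 31.7 and 40.7 FPKM with DMSO. Trim43 genes, 3 of 3, were lower than in the late control in each comparison, with medians of −2.11, −2.21 and −3.50. From early to late their means still went up with Hdac1 mutant mRNA. Trim43a went from 0.482 to 20.1 FPKM, Trim43b from 1.62 to 42.4 and Trim43c from 0.591 to 7.96. With Hdac1 WT mRNA the late means were 90.6, 169.6 and 81.6 FPKM. The Dux-like genes Duxbl1, Duxbl2 and Duxbl3 were also lower than in the late controls, with medians of −1.49 with the Hdac1 mutant, −1.83 with the Hdac2 mutant and −1.82 with FK228. Duxbl1 read 4.79 and 10.1 FPKM with the Hdac1 mutant against 17.7 and 26.2 FPKM with WT, the opposite direction to Duxf3. The Tdpoz genes split within their family: of 5, Tdpoz3 rose in each comparison, by 1.52 with the Hdac1 mutant and 2.65 with the Hdac2 mutant, while Tdpoz5 fell in each, by 0.90, 0.57 and 0.73. Tdpoz2 was called lower with the Hdac2 mutant and FK228 (−0.91 and −1.05). With only the groups compared, none of the 3 Duxbl genes passed in the Hdac1 comparison (adjusted p = 0.0798, 0.0762 and 0.128).

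With Kdm5b, 3 of the 36 targets were called lower and 0 higher, beside 0.629% and 0.415% of all genes, and the median was −0.22, beside −0.018 over all genes tested. The 3 were Zscan4e (−1.26 ± 0.26, limma adjusted p = 0.0381), Zscan4b (−1.24 ± 0.28, 0.0487) and Zscan4c (−1.05 ± 0.22, 0.0377). Zscan4c read 34.9 and 34.8 FPKM with Kdm5b against 71.3 and 75.0 FPKM with water. None of the 3 passed when any 1 of the 4 libraries was left out.

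The early stage was unlike the late one for these targets. Where Duxf3 and AW822073 stood 4.38 and 4.23 times as high with Hdac1 mutant mRNA, 1 of 36 targets had a higher mean than with WT, and the median log2 difference was −0.59, beside 49.9% of all tested genes with a higher mean and a median of 0. All 5 Zscan4 genes had a lower mean. Zscan4f read 105.9 and 105 FPKM with WT and 39.0 and 60.6 FPKM with mutant mRNA, and Zscan4c 37.9 and 35.2 FPKM with WT and 13.6 and 23.3 FPKM with mutant mRNA. From early to late Zscan4f then went from a mean of 49.8 to 211 FPKM with mutant mRNA and from 105.4 to 44.3 FPKM with WT, while Duxf3 was lower late than early in both. These early values are a description in the libraries that chose the genes, and no p-value is given.

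**Figure D5:**
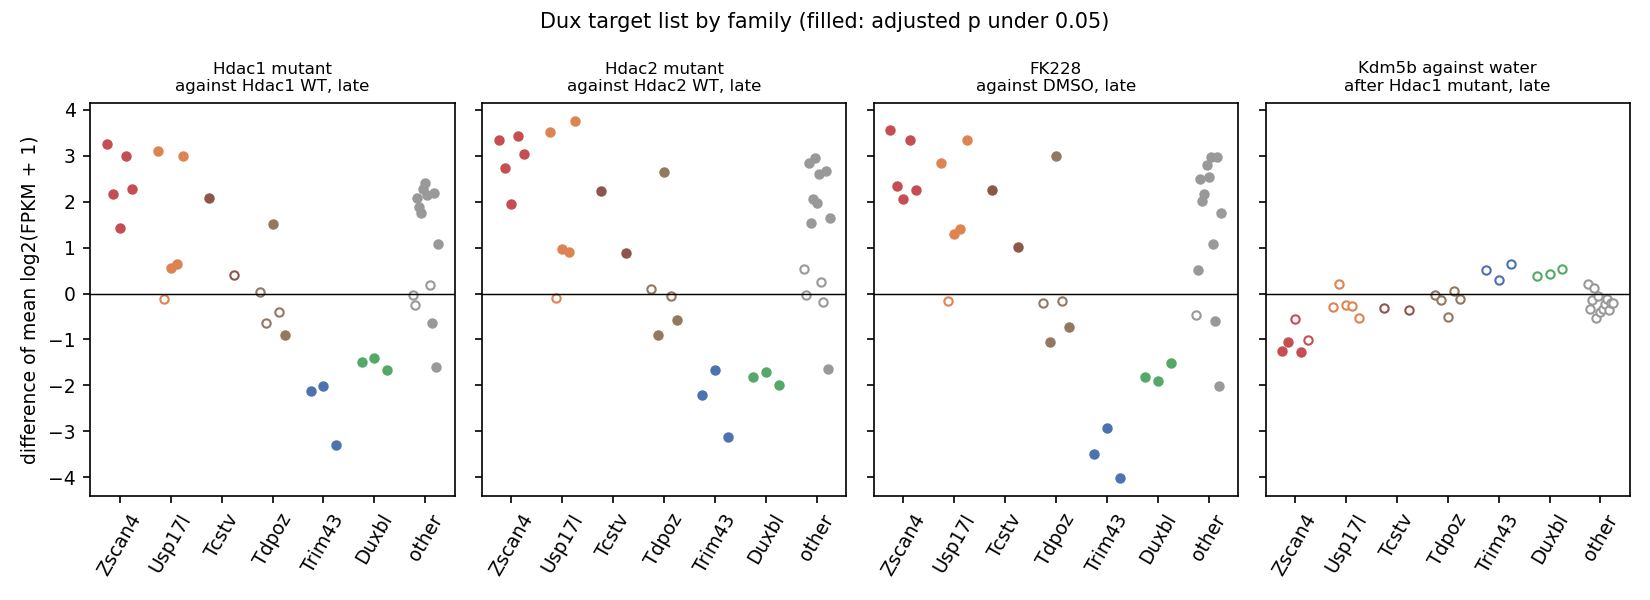
Difference of mean log2(FPKM + 1) for 36 Dux target genes by family in 4 late comparisons, filled where the adjusted p was under 0.05. Zscan4 genes lie above 0 and Trim43 and Duxbl genes below 0 in the Hdac1 mutant, Hdac2 mutant and FK228 panels, while in the Kdm5b panel 3 Zscan4 genes are filled, all below 0.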

How the data were processed

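PolyA RNA of mouse 2-cell embryos was measured in 22 libraries, 11 groups of 2, with groups, times and the dose taken from the labels. The values are FPKM per gene as deposited by the authors. Per the labels' protocols, mRNA was drawn from total RNA with oligo(dT) beads, and no strand-marking step is described. Per the submitters' processing notes, Trimmomatic, HISAT2, featureCounts, Cufflinks and DESeq2 were named, with the build GRCm38. The sources used here give neither their versions and roles nor how reads matching several genes were treated. FPKM scale each library to its total, so RNA per embryo is not seen, and absolute depth and counting error are unknown. No per-sample column was left without a sample (0 columns), and 0 pairs of columns were identical. The cattle table was not used.

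Genes with at least 1 FPKM in at least 2 libraries (17336) were taken as log2(FPKM + 1). limma 3.58.1 in R 4.3.3, with an empirical Bayes variance trend, was fitted to all 22 libraries with each group as its own term, leaving 11 degrees of freedom, and p-values were adjusted over all tested genes by Benjamini-Hochberg. No count model was run, since the deposited values are FPKM. For the early contrast and the steps from early to late only the share of all genes called is given, and no p-value of a named gene, because the early libraries chose the pair.

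Coordinates and coding sequences came from GENCODE M21, matched by symbol (27557 symbols), and were aligned with Biopython 1.88. Named besides the pair were other Dux genes, genes within 500 kb that reached a group mean of 1 FPKM, the 5 genes of highest correlation with each member, the called list members of largest difference (at most 3 a list and comparison), and the regulators Dppa2, Dppa4, Trp53, Nelfa, Smchd1 and Trim28. Zscan4f, Zscan4c outside the Kdm5b comparison, Tox2 levels and the members of families were named after their values were seen. The members and all lists were chosen with earlier results of these data known. Alternatives covered the pseudocount, filters, scaling, the libraries sharing the spread, a replicate block and each library left out.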

Additional observations from a re-analysis of the deposited data

Results flagged for a closer look

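The FK228 effect and the Hdac1 mutant effect differed in both genes by a test of the difference itself. For Duxf3, the Hdac1 mutant effect minus the FK228 effect was −1.98 on the log2(FPKM + 1) scale, from levels of 3.90 and 5.88 FPKM in the mutant and 15.3 and 19.9 FPKM with FK228. For AW822073 it was −1.90, from 4.82 and 7.70 FPKM and from 19.2 and 25.8 FPKM. In both genes the 2 FK228 libraries lay above the 2 mutant libraries. FK228 was in the medium from the zygote stage and the mRNA was injected once, and these routes cannot be told apart from the treatments themselves.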

How the results depend on the processing

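For Duxf3 and AW822073, the calls with the Hdac1 mutant (against WT and against water), the Hdac2 mutant and FK228, and the missing calls with Hdac1 WT, Hdac2 WT and Kdm5b, held under all 7 other settings and with each library left out. The labels do not say that replicate numbers pair the libraries. Deviations of same-numbered libraries correlated between −0.0893 and 0.175 over all pairs of groups, and at 0.142, 0.164 and 0.175 among the late Hdac1 mutant, Hdac1 WT and water groups, so a shared replicate set there is possible. A replicate block changed no call of the 2 genes (Duxf3 with the Hdac1 mutant, adjusted p = 5.72e-06) but moved the genes called higher with Kdm5b from 72 to 46. With quantile normalization, Duxf3 after the second water injection read 0.46 and did not pass. The Hdac1 minus FK228 difference of AW822073 did not pass with a pseudocount of 0.1 (−2.24), and with only the groups compared neither gene passed (−1.98 and −1.90). With libraries left out it ranged from −2.19 to −1.61 for AW822073, and the Hdac2 minus FK228 difference of Duxf3 from −1.61 to −0.83. Against water with libraries left out, AW822073 ranged from −0.12 to 0.38 with Hdac1 WT and from −0.40 to 0.18 with Hdac2 WT, and Duxf3 from −0.28 to 0.074 with Hdac2 WT. A pseudocount of 0.1 raised the late differences of Duxf3 and AW822073 to 3.46 and 3.05 with the Hdac1 mutant, 4.11 and 4.90 with the Hdac2 mutant, and 6.72 and 5.29 with FK228. Values given without a p-value moved as follows: with that pseudocount, the early differences of Duxf3 and AW822073 were 2.11 and 2.06 and their WT steps from early to late −3.46 and −2.90. With quantile normalization these early differences were 1.68 and 1.64, the WT step of Duxf3 −2.23 (−2.28 with median-ratio scaling) and the mutant steps −2.33 and −2.07. Among other genes, quantile normalization turned Nelfa to 0.17 and 0.25 with the Hdac1 and Hdac2 mutants, Gm4981 to −0.14 after the second water injection, and with Kdm5b Smchd1 to −0.052 (−0.043 with median-ratio scaling) and Lims1 to 0.082. With libraries left out, Smchd1 ranged from −0.12 to 0.43 with the Hdac2 mutant and from −0.080 to 0.10 with Kdm5b, Lims1 from −0.10 to 0.070 and Gcc2 from −0.33 to 0.062 with Kdm5b, and Gcc2 from −0.43 to 0.0018 with FK228. The cause of these changes was not tested.

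Counts of called genes depended on the libraries that share the spread. With only the groups compared, 3118 genes were higher and 2186 lower with the Hdac1 mutant against WT (5281 and 3746 otherwise), 3233 and 2719 against water (5090 and 4291 otherwise), and 0 in either direction with the WT mRNAs against water and with Kdm5b. Kdm5b calls (72 higher, 109 lower) ranged from 0 to 95 and from 0 to 151 over the other settings, and from 4 to 32 and 8 to 99 with libraries left out. Hdac1 WT calls (61 higher, 318 lower) ranged from 0 to 109 and from 0 to 411 over the settings and from 22 to 257 and 121 to 469 with libraries left out. Hdac2 WT calls (1143 and 495) ranged from 0 to 1212 and from 0 to 692 over the settings and from 569 to 972 and 195 to 495 with libraries left out. A minimum of 5 FPKM left 3377, 3383 and 3410 genes higher with the Hdac1 mutant against water, the Hdac2 mutant and FK228. Quantile normalization moved the split to 4192 higher and 4540 lower with the Hdac1 mutant, 4219 and 4533 with the Hdac2 mutant, and 4762 and 4828 with FK228. Targets called lower with the Hdac1 mutant fell to 5 with only the groups compared, and those with Kdm5b to 0 there, with a pseudocount of 0.1 and with any library left out.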
